A study of Mus musculus with 40 samples.

Results

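The 44 genes described here encode CtBP, the chromatin proteins that work with it, and further repressors that keep mouse embryonic stem cells out of the 2-cell-like state. They were taken by gene symbol from a fixed list of complex subunits, out of 55276 symbols in the genotype and time course tables and 55291 in the Pramel7 table. The rule uses only names, although the list was drawn up with earlier results of these data known. The list holds 13 genes of CtBP and the LSD1-CoREST complex, 3 of the G9a-GLP complex, 9 of the TRIM28-SETDB1 pathway and H3K9 methylation, 4 histone chaperone genes, the pair Rif1 and Smchd1, 8 genes of PRC1.6 and 5 of PRC2. All 44 could be tested in the genotype and Pramel7 tables and 43 in the time course, where Ctbp1 had too few counts.

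CtBP proteins do not bind DNA sequences themselves. They are carried to genes by DNA-binding factors such as the ZEB proteins and bring along LSD1 (encoded by Kdm1a), which removes methyl groups from histone H3 lysine 4, the CoREST scaffolds Rcor1, Rcor2 and Rcor3, and the deacetylases Hdac1 and Hdac2. A small share of embryonic stem cells passes at any time through a state in which Dux, Zscan4 genes and endogenous retroviruses of the 2-cell embryo are transcribed. Several of the other repressors described here, among them TRIM28, SETDB1, G9a, the chromatin assembly factor CAF-1, RIF1, SMCHD1 and PRC1.6, are known from knockdown or knockout studies to limit that state.

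RNA was sequenced from E14tg2a, a mouse embryonic stem cell line kept in serum and leukaemia inhibitory factor, in 34 libraries that form 3 tables. In the genotype table, 6 conditions were sequenced with 2 libraries per condition. These are WT, CtbpDKO (both Ctbp genes knocked out), DuxKO (Dux knocked out), Dppa2KO (Dppa2 knocked out), Ctbp_DuxTKO (both Ctbp genes and Dux) and a pair called DKO_Dppa2KO here (both Ctbp genes and Dppa2). The title of that last pair names Dppa2 and Dux, whereas its column name gives the Ctbp double knockout with Dppa2. In the Pramel7 table, WT has 4 libraries, and DuxKO, P7KO (Pramel7 knocked out), P7OE (Pramel7 overexpressed) and DuxKO_P7OE (Pramel7 overexpressed without Dux) have 2 each. The time course follows cells labelled CtbpDKO and Dox at days 0, 3, 9, 12 and 18, also in pairs. How the knockouts and the overexpression were made, how many clones were used and what Dox stands for are not given in the sources used here. Nothing says that replicates came from separate cultures, so p-values measure the spread between these libraries, which may be technical.

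Library totals were 19944644 to 36025046 counts (genotype table), 10123058 to 30135341 (Pramel7 table) and 16674526 to 30169626 (time course). In every library, summed markers of pluripotent cells stood at 1869 CPM or more, and those of fibroblasts at 25.6 CPM or less. Levels are CPM, that is counts relative to the library size scaled by trimmed mean of M values. A gene counts as called when edgeR's quasi-likelihood test, adjusted over all tested genes by the Benjamini-Hochberg method, gave a p under 0.05. Fold changes are on the log2 scale, with the standard error (SE). Libraries of the same group differed by more than sampling noise, with a chi-square per gene of 14.3 or more in every pair. The 4 WT libraries of the Pramel7 table were uneven. Replicates 3 and 4 resembled each other (chi-square per gene 34.4), while the other pairs gave 81.0 to 166, and replicate 6 stood outside the others for several members, as given with the results. Reads cannot tell fewer cells of a kind from less RNA per cell, and members with processed pseudogenes, as known for the HP1 genes Cbx1 and Cbx3, carry uncertain counts.

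Promoters are shown for 4 of the members called in CtbpDKO against WT. Suv39h1, Suv39h2 and Smchd1 were lower and Rcor2 higher in CtbpDKO than in WT. Each line gives the 250 bases before the RefSeq start (GRCm38.p6), read 5′ to 3′ on the gene's strand. Capitals mark 3 motifs searched on both strands, namely the E-box CACGTG bound by MYC and MAX proteins, the E2F motif TTCCCGC and the ZEB E-box CACCTG, whose reverse complement is CAGGTG.
Suv39h1: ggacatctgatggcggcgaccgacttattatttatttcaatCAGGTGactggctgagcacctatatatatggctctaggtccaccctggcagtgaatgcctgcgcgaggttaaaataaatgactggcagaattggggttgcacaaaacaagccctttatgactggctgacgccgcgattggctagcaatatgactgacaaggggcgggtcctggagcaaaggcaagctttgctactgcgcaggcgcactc
Suv39h2: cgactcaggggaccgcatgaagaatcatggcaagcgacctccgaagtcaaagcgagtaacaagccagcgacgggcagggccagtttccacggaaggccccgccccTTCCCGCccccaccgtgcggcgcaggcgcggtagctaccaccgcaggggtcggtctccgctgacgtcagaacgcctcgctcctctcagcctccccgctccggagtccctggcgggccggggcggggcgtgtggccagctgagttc
Smchd1: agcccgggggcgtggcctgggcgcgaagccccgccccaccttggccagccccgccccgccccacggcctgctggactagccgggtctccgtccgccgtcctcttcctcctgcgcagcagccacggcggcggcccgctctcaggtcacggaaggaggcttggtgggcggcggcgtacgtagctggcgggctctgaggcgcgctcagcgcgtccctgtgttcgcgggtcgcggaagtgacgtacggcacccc
Rcor2: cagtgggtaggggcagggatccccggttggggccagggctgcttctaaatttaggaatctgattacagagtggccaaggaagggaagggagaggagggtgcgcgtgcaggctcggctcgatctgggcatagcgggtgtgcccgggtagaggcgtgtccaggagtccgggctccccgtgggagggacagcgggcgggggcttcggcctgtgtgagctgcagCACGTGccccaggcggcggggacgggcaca
The stretches lie at chrX:8074761-8075010 (minus strand) for Suv39h1, chr2:3474987-3475236 (minus) for Suv39h2, chr17:71475344-71475593 (minus) for Smchd1 and chr19:7267144-7267393 (plus) for Rcor2. Suv39h1 has 2 RefSeq starts and the one with a motif is shown. Smchd1 holds none of the 3 motifs and each of the others holds 1. RefSeq windows of 300 bases, from 250 before to 50 after the start, matched 41 of the 44 members with 60 starts. The E-box was in 10% of these windows and in 7.15% of all 32851 windows, the E2F motif in 10% and 4.60%, and the ZEB E-box in 16.7% and 20.2%. The median window held 29 CpG sites among members and 7 among all windows.

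The targeted genes were read first. Ctbp1 stood at 64.1 and 68.8 CPM in WT, 82.5 and 79.3 in DuxKO and 61.2 and 61.1 in Dppa2KO. In the 6 libraries without Ctbp it held 0 to 4 counts, which is at most 0.200 CPM. Ctbp2 stood at 211 and 215 CPM in WT and at 43.6 and 43.8 in CtbpDKO, so RNA remained from that locus. Its level was 40.0 and 40.3 CPM in Ctbp_DuxTKO and 36.5 and 36.9 in DKO_Dppa2KO. Both Ctbp genes were thus low in every library labelled as lacking them, the DKO_Dppa2KO pair included. The loss of Dppa2 in that pair was taken from its column name, and its Dppa2 RNA is not given here. Whether Dux is also knocked out in it, as its title says, was not tested. Kdm1a, the demethylase at the core of the complex, stood at 72.8 and 68.9 CPM in WT and at 77.2 and 91.6 in CtbpDKO, a log2 fold change of 0.25 (SE 0.10, edgeR adjusted p 0.0928) that was not called. The 2-cell-like state was read from Zscan4c, a gene with several near-identical copies. WT libraries held 12 and 3 of its counts, CtbpDKO libraries 323 and 476, and Ctbp_DuxTKO libraries 3 and 0. Duxf3, the mouse Dux gene, had 40 and 24 counts in CtbpDKO, 1 and 0 in WT and 0 in every library of the other 4 genotypes.

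Loss of CtBP in otherwise wild-type cells raised 10 of the 44 members and lowered 8, among them Ctbp1 and Ctbp2 themselves. The shares over all 21193 tested genes were 14.7% for higher and 11.4% for lower calls. These shares include chromosome 8, which holds no member and whose median gene moved by 0.35. It also moved by 0.38 in DuxKO against WT and by 0.50 in DKO_Dppa2KO against Dppa2KO. The part of chromosome 8 in the shares was not tested. The median absolute log2 fold change was 0.26 over the members and 0.38 over all genes. Calls went both ways in 3 of the 7 roles. Subunits of LSD1-CoREST went both ways, H3K9 methyltransferases of the SUV39 family fell, and SETDB1, G9a and Jarid2 rose.

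In the LSD1-CoREST group 4 of 13 rose and 4 fell. Zmym3, a zinc finger subunit, stood at 45.6 and 47.0 CPM in WT and 75.7 and 68.4 in CtbpDKO (log2 fold change 0.64, SE 0.09, edgeR adjusted p 9.86e-05). Hdac1 stood at 114 and 117 CPM in WT and at 152 and 166 in CtbpDKO (0.46, SE 0.09, edgeR adjusted p 0.00205). In Rcor2, the CoREST scaffold most used in embryonic stem cells, WT libraries held 131 and 133 CPM and CtbpDKO 185 and 171 (0.43, SE 0.09, edgeR adjusted p 0.00332). None of these 3 genes had overlapping groups. Lack of overlap was part of the rule for giving values per library and was not counted over all genes. Hmg20b, an HMG-box subunit, was the other one to rise (0.47, SE 0.14). Phf21a, the reader of unmethylated H3 lysine 4, fell from 71.5 and 76.4 CPM to 39.8 and 35.0 (−0.98, SE 0.12, edgeR adjusted p 5.26e-05). Zmym2 fell by 0.70 (SE 0.18).

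The heterochromatin genes showed a split between their enzymes. Suv39h1, which trimethylates H3K9 in pericentric heterochromatin, stood at 29.5 and 30.3 CPM in WT and 17.6 and 16.0 in CtbpDKO (−0.83, SE 0.10, edgeR adjusted p 4.99e-05). Its paralogue Suv39h2 stood at 20.1 and 22.0 CPM in WT and 12.7 and 13.9 in CtbpDKO (−0.66, SE 0.12, edgeR adjusted p 0.0011). In both genes every CtbpDKO library lay below every WT library, a separation that was likewise not counted over all genes. Setdb1, the methyltransferase that TRIM28 brings to retroviral sequences, rose by 0.48 (SE 0.09) and Trim28 by 0.26 (SE 0.08). Ehmt2, which encodes G9a, stood at 121 and 133 CPM in WT and 184 and 167 in CtbpDKO (0.47, SE 0.09, edgeR adjusted p 0.00156). Its partner Ehmt1 was not called.

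Of the histone chaperones, Daxx rose by 0.28 (SE 0.08) and its partner Atrx fell by 0.30 (SE 0.09), while the CAF-1 subunits Chaf1a and Chaf1b were not called. Smchd1, which helps to silence the inactive X chromosome and clustered genes, stood at 71.9 and 65.6 CPM in WT and at 45.4 and 58.6 in CtbpDKO (−0.40, SE 0.14, edgeR adjusted p 0.0499), just inside the threshold. Rif1, a replication timing factor, was not called. Among the 8 PRC1.6 genes only Ring1 was called, at 6.27 and 8.35 CPM in WT and 11.2 and 9.89 in CtbpDKO (0.52, SE 0.17, edgeR adjusted p 0.0366). Among the 5 PRC2 genes only Jarid2, an accessory subunit, was called, at 477 and 517 CPM in WT and 734 and 681 in CtbpDKO (0.51, SE 0.09, edgeR adjusted p 0.000827). With 1 library left out at a time, 11 to 17 members were called, the fewest without WT replicate 1 or CtbpDKO replicate 1. The calls of Ctbp1, Ctbp2, Jarid2, Phf21a, Suv39h1, Suv39h2 and Zmym3 held under every alternative tried, those of Ehmt2, Hdac1, Rcor2 and Setdb1 under every one except a minimum absolute log2 fold change of 0.5, and those of the other 7 were lost under further ones.

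**Figure D1:**
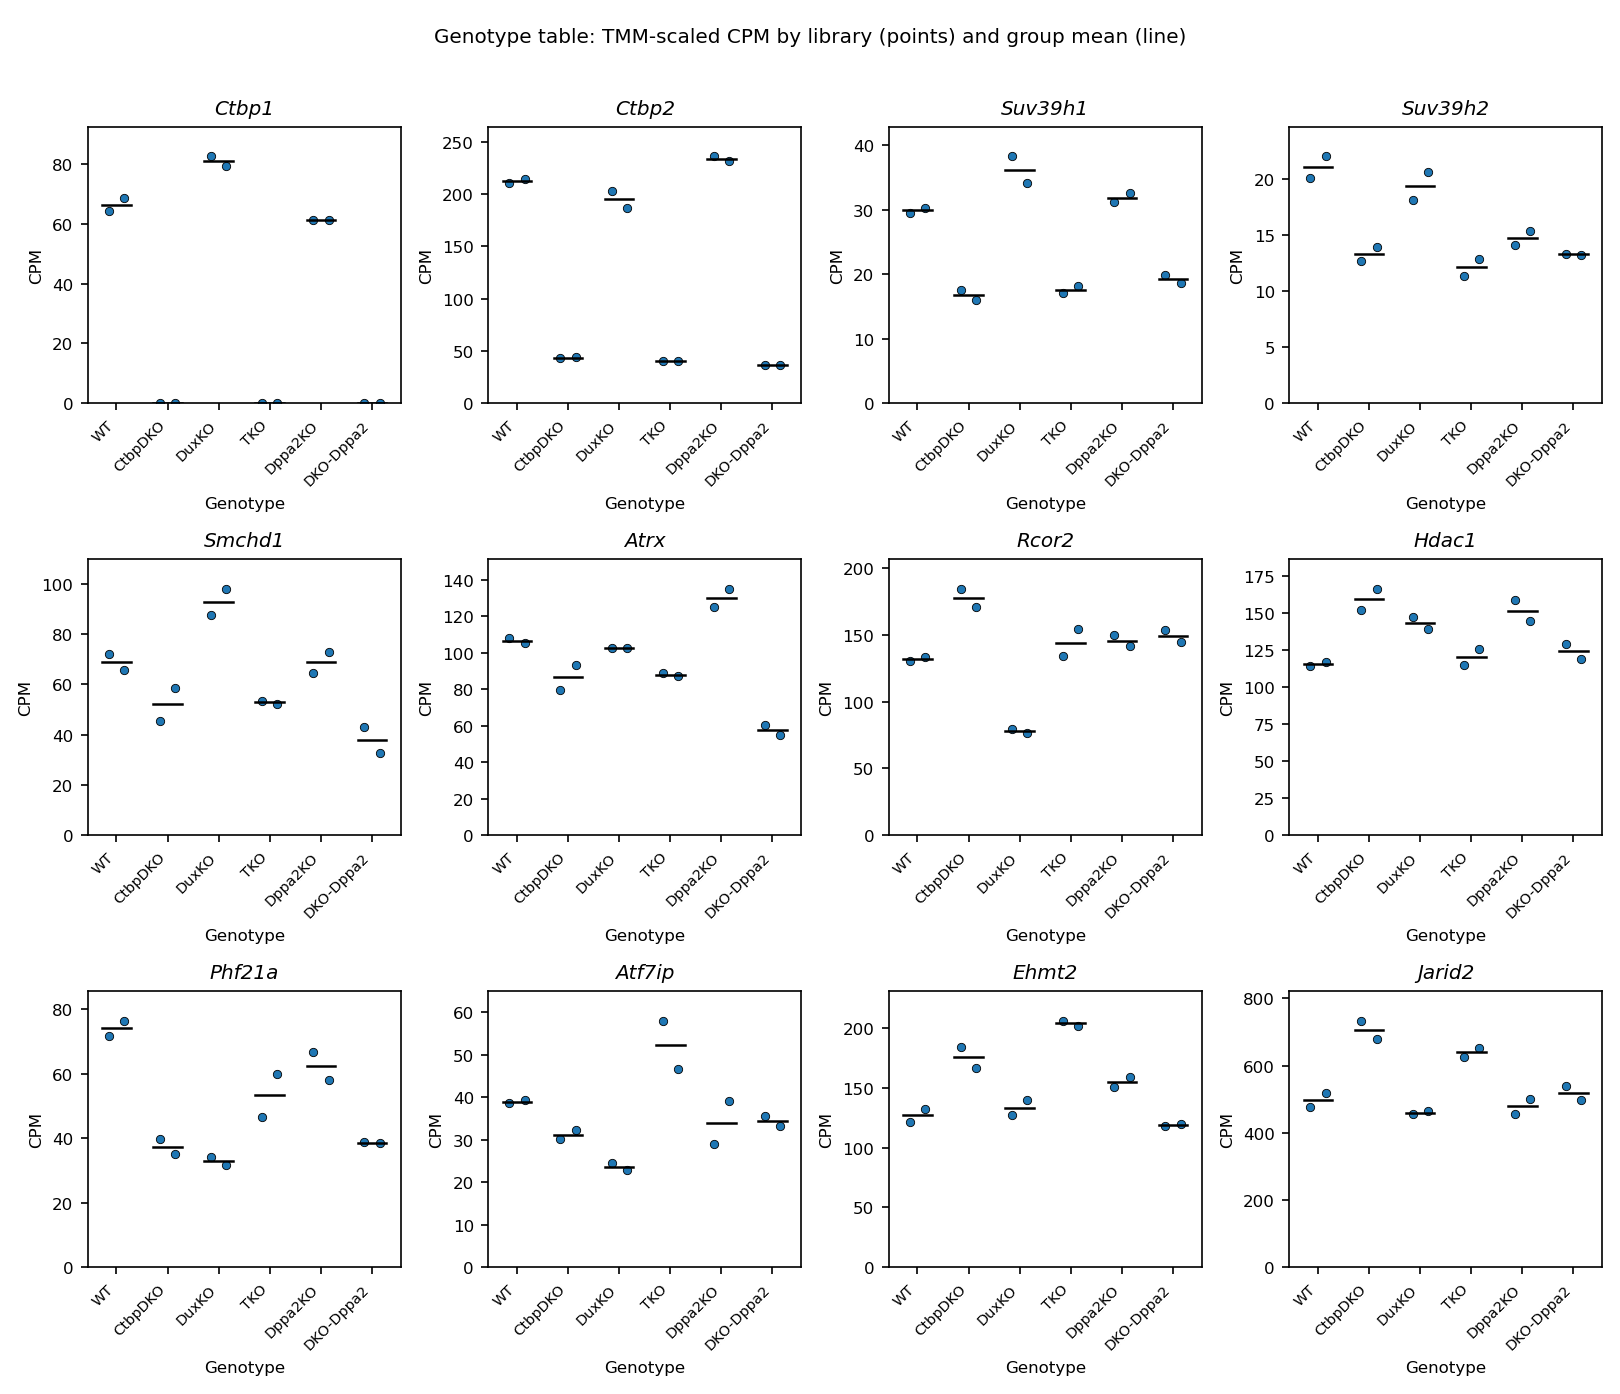
CPM on the y axis (from 0) for 12 members in the 6 genotypes on the x axis, where TKO is Ctbp_DuxTKO and DKO-Dppa2 is DKO_Dppa2KO. Each point is 1 library and each line a group mean (n = 2). Suv39h1 lies between 16.0 and 19.8 CPM in the 6 libraries without Ctbp and at 29.5 CPM or more in the others.

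Among the other genes of these complexes, a list of 55 tested genes that are not members, 10 rose and 12 fell in CtbpDKO. Among those that rose was Zfp516, a zinc finger partner of CtBP (1.08, SE 0.09). The largest falls were in Zeb2, a DNA-binding recruiter of CtBP (−1.95, SE 0.37), and Phf19, a PRC2 accessory subunit (−0.81, SE 0.13).

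Summed markers of other cell types moved with Ctbp loss, and their part in the changes of the members was not tested. The 6 trophoblast markers summed to 33.5 to 36.9 CPM in WT and 135 to 144 in CtbpDKO. Most of the CtbpDKO sum came from Krt8, a keratin gene, at 109 to 117 CPM, where WT had 16.0 to 19.8. Of the other markers in the sum, Elf5 was at 0 in WT and at most 0.122 CPM in CtbpDKO. Cdx2 went from at most 0.554 to at most 1.04 CPM. The sum also holds Eomes, Krt7 and Tfap2c, which are not given singly here. The 6 mesoderm and neural markers summed to 49.1 to 52.5 CPM in WT and 17.996 to 18.4 in CtbpDKO. The 7 endoderm markers summed to 10.5 to 10.84 and 17.4 to 17.8 CPM, with Afp at 0 in both groups, and the 7 fibroblast markers to 4.90 to 5.38 and 16.7 to 17.1 CPM, with Postn and Lum at 0. In the other 2 backgrounds the trophoblast sum was 45.6 to 50.6 CPM in DuxKO, 138 to 139 in Ctbp_DuxTKO, 21.9 to 25.4 in Dppa2KO and 146 to 151 in DKO_Dppa2KO. The endoderm sum was 2.41 to 2.83 CPM in DuxKO and 46.1 to 49.8 in Ctbp_DuxTKO.

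Ctbp loss was measured in 2 further backgrounds that share no library with the first. Without Dux (Ctbp_DuxTKO against DuxKO), 18 members were higher and 8 lower, where 21.4% of all genes were called higher and 19.6% lower. Without Dppa2 (DKO_Dppa2KO against Dppa2KO), 1 member was higher and 17 lower, where 15.2% of all genes were called higher and 15.2% lower. Called the same way in all 3 backgrounds were 4 of the 44 members (9.09%) and 2034 of 21193 genes (9.60%). The 4 were Ctbp1, Ctbp2, Suv39h1 and Smchd1, all lower. Ctbp1 and Ctbp2 are the targeted genes, so their calls followed from the design, here and in the counts of lower members above. The closeness of the members' share to that of all genes rests on these calls, since only Suv39h1 and Smchd1 remain without them. No member was called higher in all 3.

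Suv39h1 went from 38.2 and 34.1 CPM in DuxKO to 17.0 and 18.1 in Ctbp_DuxTKO (−1.04, SE 0.10, edgeR adjusted p 4.32e-06). It went from 31.2 and 32.5 CPM in Dppa2KO to 19.8 and 18.6 in DKO_Dppa2KO (−0.73, SE 0.10, edgeR adjusted p 0.000152). The gene lies on the X chromosome, whose median gene moved by −0.07, −0.17 and −0.19 in the 3 comparisons. Smchd1 went from 87.6 and 98.0 CPM in DuxKO to 53.4 and 52.2 in Ctbp_DuxTKO (−0.81, SE 0.14, edgeR adjusted p 0.000467). It went from 64.6 and 72.7 CPM in Dppa2KO to 43.0 and 32.6 in DKO_Dppa2KO (−0.86, SE 0.14, edgeR adjusted p 0.000479). In these 2 backgrounds the calls of both genes held under every alternative. Suv39h2 fell without Dux too (−0.67, SE 0.12) but stood at 14.1 and 15.3 CPM already in Dppa2KO, and its further change there was −0.15 (SE 0.12, edgeR adjusted p 0.386).

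Without Dux, the largest rise was in Suz12, a core PRC2 subunit, from 34.3 and 35.7 CPM in DuxKO to 120.2 and 81.0 in Ctbp_DuxTKO (1.52, SE 0.26, edgeR adjusted p 0.000401). The Ctbp_DuxTKO libraries differed widely but both lay above DuxKO. Atf7ip, the stabilising partner of SETDB1, went from 24.4 and 22.8 CPM to 58.0 and 46.6 (1.15, SE 0.14, edgeR adjusted p 2.59e-05). Rcor2 went from 79.4 and 76.5 CPM to 134 and 154 (0.89, SE 0.09, edgeR adjusted p 6.1e-06). Mga, the scaffold of PRC1.6, went from 78.6 and 85.0 CPM to 168 and 129.9 (0.86, SE 0.16, edgeR adjusted p 0.000934). PRC1.6 thus had 4 of 8 members higher and 0 lower (Mga, L3mbtl2, Max and Rybp), and PRC2 had 3 of 5 higher (Suz12, Jarid2 and Eed). Jarid2 lies on chromosome 13, whose median gene moved by −0.22. In the TRIM28 and H3K9 group 5 of 9 rose (Atf7ip, Cbx5, Cbx1, Setdb1 and Trim28) and both SUV39 genes fell. Chaf1b, a CAF-1 subunit, went from 107 and 101 CPM to 59.4 and 70.2 (−0.68, SE 0.11, edgeR adjusted p 0.000331). Hdac1 fell by 0.25 (SE 0.09) and Hdac2 by 0.38 (SE 0.08). Of the G9a group, Ehmt2 rose by 0.61 (SE 0.09) and Wiz, which holds G9a and GLP together, by 0.38 (SE 0.14). Of the 55 other complex genes 18 rose, Cbx8 among them (2.50, SE 0.37), and 16 fell, led by Phc2 (−1.60, SE 0.13) and Zeb2 (−1.41, SE 0.36). With 1 library left out at a time, 18 to 22 members were called.

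Without Dppa2, the largest fall beside the Ctbp genes was in Atrx, the ATPase that works with DAXX to place histone H3.3. It stood at 125 and 135 CPM in Dppa2KO and at 60.3 and 55.0 in DKO_Dppa2KO (−1.17, SE 0.10, edgeR adjusted p 1.14e-06). Mtf2, a PRC2 accessory subunit, went from 139.6 and 148 CPM to 86.4 and 76.1 (−0.83, SE 0.09, edgeR adjusted p 1.98e-05). Zmym2 fell by 0.82 (SE 0.18), Hdac2 by 0.75 (SE 0.08) and Phf21a by 0.69 (SE 0.12). Daxx, the only member to rise, went from 90.0 and 89.8 CPM to 110.9 and 113 (0.32, SE 0.08, edgeR adjusted p 0.00913). In the LSD1-CoREST group 7 of 13 fell, the targeted Ctbp1 and Ctbp2 included. Kdm1a was among them (−0.40, SE 0.10, edgeR adjusted p 0.00972). Cbx3, whose Dppa2KO libraries held 75.2 and 132 CPM, fell by 0.77 (SE 0.24), a call that was lost under 4 alternatives. The count was 10 to 17 with 1 library left out at a time, the fewest without DKO_Dppa2KO replicate 2.

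Whether Ctbp loss acted differently with and without the second gene was tested directly, as the difference between the 2 log2 fold changes. For Dux, 8 members had a higher change without Dux and 3 a lower one, where 9.82% of all genes had a higher and 9.64% a lower difference. The median gene of chromosome 8, which holds no member, had a difference of −0.48, and its part in these shares was not tested. Phf21a was the extreme case. It fell after Ctbp loss in cells with Dux and went from 34.1 and 31.8 to 46.6 and 60.0 CPM in cells without it (difference 1.68, SE 0.17, edgeR adjusted p 3.31e-05). Next came Atf7ip (1.47, SE 0.20), Mga (1.07, SE 0.23) and Cbx5, which encodes HP1 alpha (0.87, SE 0.14). Of the 3 with a lower change, Ring1 had a difference of −0.97 (SE 0.24), Hdac1 of −0.72 (SE 0.13) and Chaf1b of −0.55 (SE 0.16). The DuxKO libraries enter each difference, and in them Phf21a, Atf7ip, Mga and Cbx5 were below WT and Ring1 and Hdac1 above it. The count was 6 to 11 with 1 library left out, the fewest without DuxKO replicate 1.

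For Dppa2, 8 members had a lower change after Ctbp loss without Dppa2 and 0 a higher one, where 3.23% of all genes had a higher and 5.0% a lower difference. DESeq2 called 11 lower and 0 higher, with no share over all genes taken. An unadjusted edgeR p under 0.05 in either direction was found for 17 members, 38.6% against 23.3% of all genes. The 8 were Atrx (−0.88, SE 0.13), Ehmt2 (−0.85, SE 0.13), Hdac1 (−0.75, SE 0.13), Zmym3 (−0.67, SE 0.12), Kdm1a (−0.66, SE 0.15), Hdac2 (−0.62, SE 0.12), Mtf2 (−0.62, SE 0.13) and Setdb1 (−0.48, SE 0.12). LSD1 and both of its deacetylases were therefore among them, 4 of the 13 genes of the LSD1-CoREST group in all. Kdm1a stood at 93.0 and 102 CPM in Dppa2KO and at 74.1 and 72.9 in DKO_Dppa2KO. Of the 8, 5 (Hdac1, Ehmt2, Zmym3, Kdm1a and Setdb1) were also called higher in Dppa2KO than in WT, and that group enters the difference. Over all members, Ctbp1 and Ctbp2 included, the median difference was −0.23, against −0.01 over all tested genes, those with low counts included. Over genes above a mean log2 CPM of 2, chromosome medians of the difference ran from −0.14 (chromosome 10) to 0.14 (chromosome 8). The count was 5 to 10 with 1 library left out, the fewest without WT replicate 2 or DKO_Dppa2KO replicate 2.

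**Figure D2:**
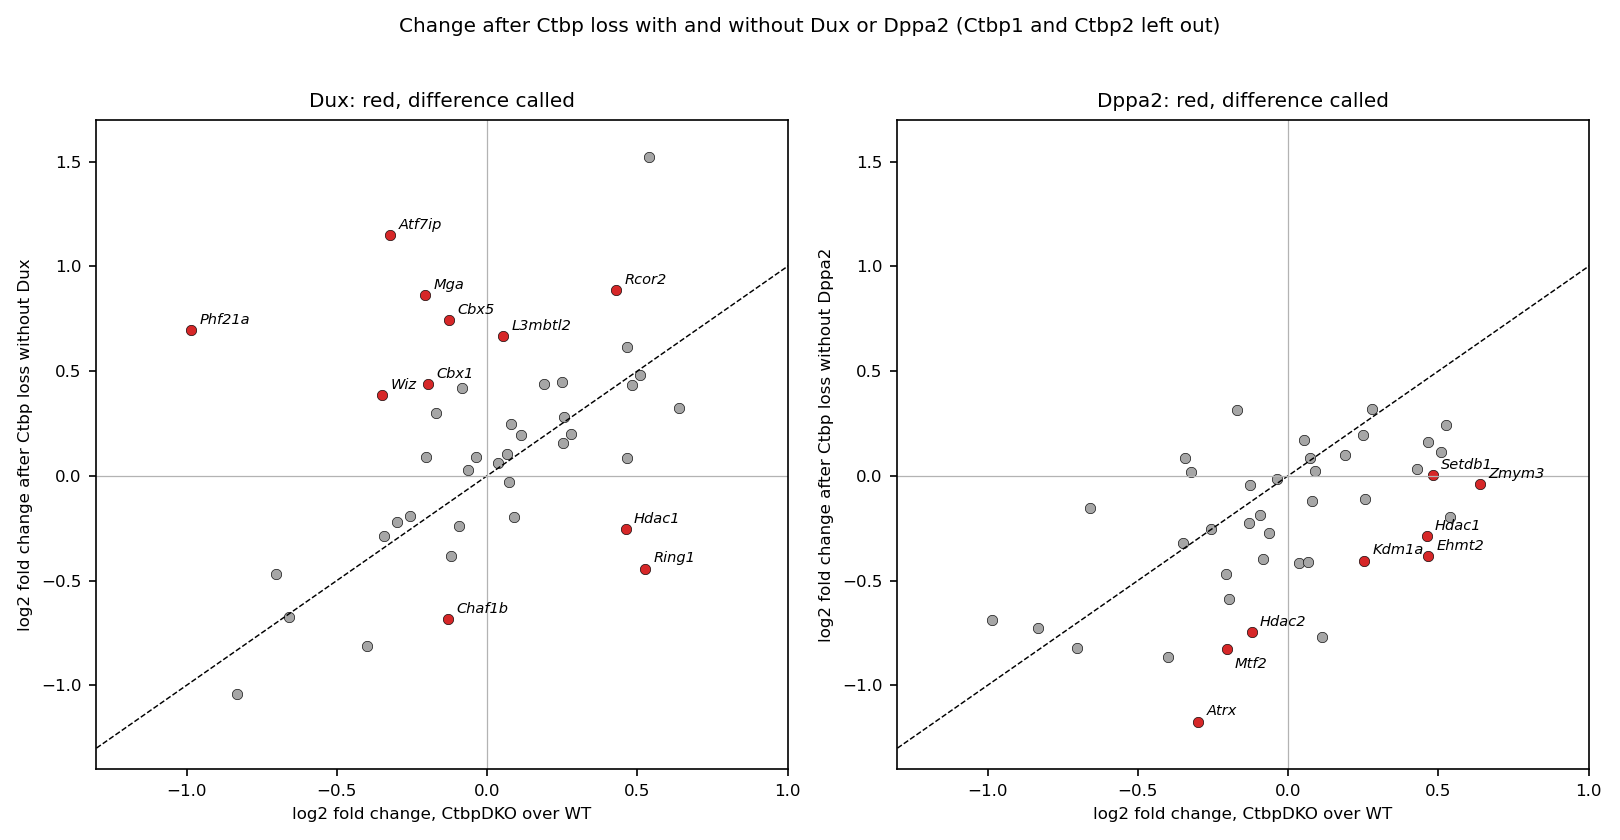
Log2 fold change after Ctbp loss in WT cells (x axis) and in cells without Dux (y axis, left) or without Dppa2 (y axis, right) for 42 members, leaving out Ctbp1 and Ctbp2. The dashed line marks equal change and red points are members whose difference was called. On the right all 8 red points lie below the line.

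Dux loss in cells with CtBP lowered 9 members and raised 3, where 7.94% of all genes were called higher and 9.56% lower. Rcor2 stood at 131 and 133 CPM in WT and 79.4 and 76.5 in DuxKO (−0.76, SE 0.09, edgeR adjusted p 9.97e-05). Phf21a stood at 71.5 and 76.4 CPM in WT and 34.1 and 31.8 in DuxKO (−1.17, SE 0.12, edgeR adjusted p 3.47e-05). Atf7ip fell by 0.72 (SE 0.14), Mga by 0.54 (SE 0.16), Cbx5 by 0.52 (SE 0.10), Mtf2 by 0.47 (SE 0.09), Wiz by 0.47 (SE 0.14), Cbx1 by 0.43 (SE 0.11) and Eed by 0.33 (SE 0.09). The 3 that rose were Ring1 (0.80, SE 0.17), Smchd1 (0.43, SE 0.14) and Hdac1 (0.31, SE 0.09). With 1 library left out, 5 to 7 were called, the fewest without WT replicate 1 or DuxKO replicate 1.

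The same knockout was measured again in the Pramel7 table, with its own 4 WT libraries. There 4 members were higher and 8 lower in DuxKO, where 7.76% of all genes were called higher and 8.91% lower. The median gene of chromosome 8 moved by 0.34, and its part in these shares was not tested. Called the same way in both tables were 3 members, 25% of the 12 called in each table, namely Rcor2, Eed and Mtf2, all lower, and 0 were called in opposite directions. Over all genes 1101 were called the same way, which is 30.1% of the calls in the first table and 33.2% of those in the second. In the Pramel7 table Rcor2 stood at 155, 156, 153 and 142 CPM in WT and 84.9 and 67.0 in DuxKO (−0.997, SE 0.13, edgeR adjusted p 0.000177). Its call was the only one that held under every alternative. Phf21a, the member with the largest fall in the genotype table, stood at 23.1 to 28.4 CPM in the 4 WT libraries and 30.2 and 28.3 in DuxKO (0.22, SE 0.14, edgeR adjusted p 0.343). Suv39h1 stood at 25.4 to 32.2 CPM in WT and 42.8 and 43.3 in DuxKO (0.57, SE 0.13, edgeR adjusted p 0.00948). Rcor3 (0.96, SE 0.27), Zmym3 (0.49, SE 0.14) and Ctbp1 (0.42, SE 0.11) also rose. Atrx (−0.72, SE 0.21), Rif1 (−0.54, SE 0.16), Morc3 (−0.52, SE 0.13), L3mbtl2 (−0.45, SE 0.12) and Ehmt2 (−0.42, SE 0.13) fell as well. Atrx was 90.7 and 106 CPM in WT replicates 3 and 4 and 142 and 172 in replicates 5 and 6, against 75.3 and 79.7 in DuxKO. With WT replicates 3 and 4 as the only controls 15 members were called, with replicates 5 and 6 it was 21, and without either DuxKO replicate 1.

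Dux loss on top of Ctbp loss (Ctbp_DuxTKO against CtbpDKO) gave 3 members higher and 2 lower, where 3.60% of all genes were called higher and 4.54% lower. Atf7ip went from 30.0 and 32.2 CPM in CtbpDKO to 58.0 and 46.6 in Ctbp_DuxTKO (0.75, SE 0.14, edgeR adjusted p 0.00552). L3mbtl2, a PRC1.6 subunit, went from 176 and 154 to 251 and 221 CPM (0.52, SE 0.09, edgeR adjusted p 0.00526), and Phf21a from 39.8 and 35.0 to 46.6 and 60.0 CPM (0.51, SE 0.12, edgeR adjusted p 0.0223). Chaf1b fell by 0.52 (SE 0.11) and Hdac1 by 0.41 (SE 0.09). None of the 5 calls held under every alternative. With 1 library left out 1 to 6 members were called, 1 without CtbpDKO replicate 2 or Ctbp_DuxTKO replicate 1. Suv39h1 and Smchd1 were not called.

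Dppa2 loss in cells with CtBP raised 6 members and lowered 2, where 7.67% of all genes were called higher and 8.69% lower. Dppa2 RNA itself stood at 57.3 and 60.9 CPM in WT and 33.3 and 29.1 in Dppa2KO, so it was reduced and not gone. Zmym3 stood at 45.6 and 47.0 CPM in WT and 66.1 and 68.6 in Dppa2KO (0.54, SE 0.09, edgeR adjusted p 0.00112). Kdm1a stood at 72.8 and 68.9 CPM in WT and 93.0 and 102 in Dppa2KO (0.46, SE 0.10, edgeR adjusted p 0.00978). Hdac1 (0.39, SE 0.09), Setdb1 (0.36, SE 0.09), Ehmt2 (0.29, SE 0.09) and Trim28 (0.27, SE 0.08) were the others to rise. Suv39h2 fell from 20.1 and 22.0 CPM to 14.1 and 15.3 (−0.51, SE 0.12, edgeR adjusted p 0.0108), and E2f6, the DNA-binding subunit of PRC1.6, fell by 0.47 (SE 0.12). Of the 8 calls, 1, that of Zmym3, held under every alternative. With 1 library left out 2 to 4 were called, the fewest without WT replicate 2.

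Dppa2 loss on top of Ctbp loss (DKO_Dppa2KO against CtbpDKO) lowered 10 members and raised 0, where 5.75% of all genes were called higher and 9.67% lower. Atrx stood at 79.8 and 93.4 CPM in CtbpDKO and 60.3 and 55.0 in DKO_Dppa2KO (−0.59, SE 0.10, edgeR adjusted p 0.00135). Mtf2 stood at 116 and 124 CPM and then at 86.4 and 76.1 (−0.56, SE 0.09, edgeR adjusted p 0.00138). Ehmt2 went from 184 and 167 to 118 and 119 CPM (−0.56, SE 0.09, edgeR adjusted p 0.00114), and Hdac2 from 70.8 and 76.0 to 50.9 and 48.6 CPM (−0.56, SE 0.08, edgeR adjusted p 0.00079). These 4 calls held under every alternative. The other 6 were Rif1, Smchd1, Jarid2, Rcor1, Cbx1 and Hdac1, with log2 fold changes from −0.50 (Rif1) to −0.36 (Hdac1). DESeq2 called 9 lower and 1 higher, with no share over all genes taken. An unadjusted edgeR p under 0.05 in either direction was found for 14 members, 31.8% against 29.4% of all genes. Setting DKO_Dppa2KO replicate 2 aside left 4 calls.

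**Figure D3:**
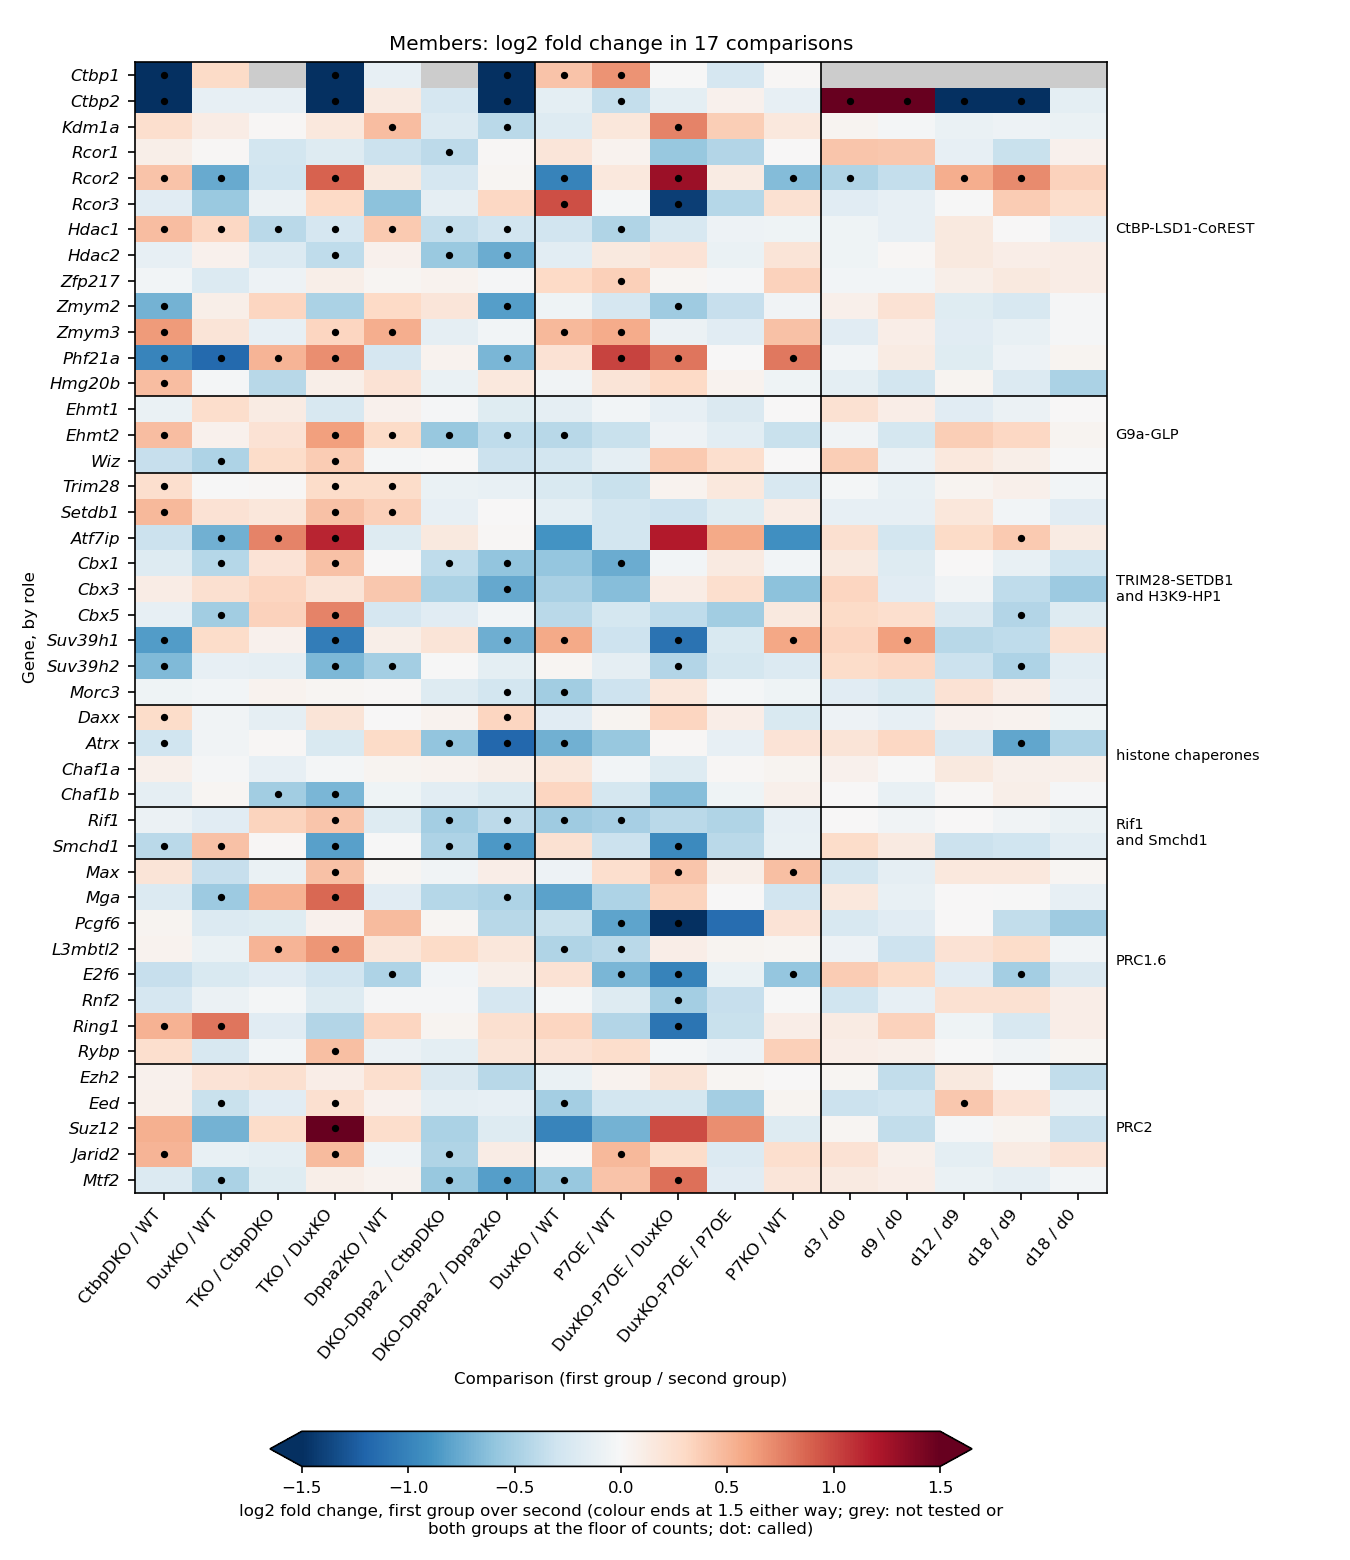
Log2 fold changes of the 44 members (rows, by role) in 17 comparisons (columns, first group over second, from the genotype, Pramel7 and time course tables from left to right). Colour runs from −1.5 to 1.5, dots mark calls, and grey cells were not tested or have both groups at the floor of counts. The Suv39h1 and Smchd1 rows are called lower in each of the 3 comparisons of cells without Ctbp against cells with it.

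Pramel7 overexpression was read in cells with and without Dux. Pramel7, a gene of the PRAME-like family, stood at 14.04 and 26.2 CPM in P7OE, 49.3 and 56.7 in DuxKO_P7OE and at most 0.154 in the WT libraries of the Pramel7 table. In P7KO it held 0 and 3 counts, and in WT 2 to 4, so the knockout could not be checked by its RNA. In cells with Dux (P7OE against WT), 5 members were higher and 7 lower, where 11.0% of all genes were called higher and 8.90% lower. In cells without Dux (DuxKO_P7OE against DuxKO), 5 were higher and 9 lower, where 11.6% of all genes were called higher and 9.83% lower. In this comparison the median gene of chromosome 8 moved by −0.31 and that of chromosome 11 by 0.22. Their part in the shares was not tested. Kdm1a stood at 60.8, 58.7, 68.4 and 85.5 CPM in WT, 59.7 and 59.4 in DuxKO, 73.7 and 78.3 in P7KO, 78.3 and 75.3 in P7OE and 104 and 94.7 in DuxKO_P7OE. Ctbp2 lay between 182 and 252 CPM in all 12 libraries, and Ctbp1 between 60.1 and 109 CPM. PRC1.6 had 3 of 8 members lower in the former and 4 in the latter, with Pcgf6 and E2f6 lower in both. The 7 endoderm markers moved with Pramel7, from 3.71 to 4.23 CPM in WT to 27.9 to 29.2 in P7OE, and from 3.19 to 3.29 in DuxKO to 26.9 to 27.2 in DuxKO_P7OE, and Afp was at most 0.194 CPM throughout. The 6 trophoblast markers summed to 77.6 to 186 CPM in WT, 44.4 to 50.6 in P7OE, 87.6 to 87.8 in DuxKO and 39.4 to 39.9 in DuxKO_P7OE. In P7KO they summed to 42.7 to 43.7 CPM. The part of these markers in the changes of the members was not tested.

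Pcgf6, the subunit that defines PRC1.6, stood at 88.3, 63.2, 95.2 and 113 CPM in WT and 57.6 and 46.1 in P7OE (−0.79, SE 0.20, edgeR adjusted p 0.0161). In DuxKO it stood at 66.8 and 76.1 CPM and in DuxKO_P7OE at 20.2 and 27.0 (−1.60, SE 0.24, edgeR adjusted p 0.000599). E2f6 stood at 22.9, 21.7, 21.7 and 17.1 CPM in WT, 14.4 and 11.4 in P7OE (−0.69, SE 0.15, edgeR adjusted p 0.00769), 25.1 and 23.3 in DuxKO and 11.6 and 12.4 in DuxKO_P7OE (−1.01, SE 0.18, edgeR adjusted p 0.00192). Both genes were low in all 4 libraries with added Pramel7. Ring1 fell by 1.10 (SE 0.21) and its paralogue Rnf2, the main ubiquitin ligase of PRC1, by 0.51 (SE 0.16) in the cells without Dux, while Max, the partner of MGA, rose by 0.41 (SE 0.13). E2f6 was also lower in P7KO, at 13.3 and 14.6 CPM (−0.58, SE 0.15, edgeR adjusted p 0.0291).

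Suv39h1, Suv39h2 and Smchd1, lower after Ctbp loss, were also lower under Pramel7 in cells without Dux. Suv39h1 went from 42.8 and 43.3 CPM in DuxKO to 21.6 and 18.2 in DuxKO_P7OE (−1.11, SE 0.16, edgeR adjusted p 0.000414). Smchd1 went from 102 and 90.1 to 45.5 and 53.6 CPM (−0.95, SE 0.14, edgeR adjusted p 0.000677). Suv39h2 fell by 0.43 (SE 0.14, edgeR adjusted p 0.0378), a call lost under 8 alternatives. In cells with Dux the 3 values were −0.31 (SE 0.13), −0.32 (SE 0.12) and −0.14 (SE 0.12), and none was called. Rcor2 again went the other way in cells without Dux, from 84.9 and 67.0 to 177 and 191 CPM (1.28, SE 0.14, edgeR adjusted p 6.27e-05). Mtf2 (0.82, SE 0.19), Kdm1a (0.74, SE 0.17) and Phf21a (0.80, SE 0.17) rose with it, and Rcor3 (−1.41, SE 0.35) and Zmym2 (−0.54, SE 0.16) fell. Mtf2 lies on chromosome 5, whose median gene moved by 0.29 in this comparison. Leaving 1 library out left 6 to 8 calls, and those of E2f6, Pcgf6, Rcor2, Ring1, Smchd1 and Suv39h1 held under every alternative.

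In cells with Dux, Phf21a stood at 23.1, 23.3, 28.4 and 25.7 CPM in WT and 46.5 and 55.2 in P7OE (1.02, SE 0.14, edgeR adjusted p 0.000341). Ctbp1 stood at 73.6, 70.3, 62.6 and 60.1 CPM in WT and 109 and 103 in P7OE (0.67, SE 0.11, edgeR adjusted p 0.00143). Ctbp1 also lies on chromosome 5, whose median gene moved by 0.42 here, which leaves 0.25 above its chromosome. Zmym3 (0.56, SE 0.14, on an X chromosome with a median of −0.24), Jarid2 (0.49, SE 0.14) and Zfp217 (0.35, SE 0.11) rose as well. Cbx1 (−0.74, SE 0.22), Rif1 (−0.50, SE 0.16), Hdac1 (−0.45, SE 0.14), L3mbtl2 (−0.40, SE 0.12) and Ctbp2 (−0.36, SE 0.11) fell. Only the calls of Phf21a and Ctbp1 held under every alternative. With WT replicates 3 and 4 as the only controls 21 members were called, with replicates 5 and 6 it was 18, without P7OE replicate 2 it was 2 and without WT replicate 6 it was 17.

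DuxKO_P7OE and P7OE differed in 0 members, and 0.00% of all genes were called higher and 0.0298% lower. At an unadjusted edgeR p under 0.05 there were 8 members, 18.2% against 11.2% of all genes, and DESeq2 called 1 member. Pcgf6 had the smallest p among members, with a log2 fold change of −1.14 (SE 0.24, edgeR adjusted p 0.15). In P7KO against WT, 3 members were higher and 2 lower, where 3.93% of all genes were called higher and 5.55% lower. Rcor2 stood at 93.4 and 99.2 CPM in P7KO, below all 4 WT libraries (−0.65, SE 0.12, edgeR adjusted p 0.00482). Suv39h1 stood at 45.2 and 41.6 CPM, above all of them (0.58, SE 0.13, edgeR adjusted p 0.0126). Phf21a stood at 44.6 and 41.9 CPM and was higher too (0.79, SE 0.14, edgeR adjusted p 0.00352), as was Max (0.45, SE 0.11). With WT replicates 3 and 4 as the only controls 18 members were called, without WT replicate 6 it was 8 and without P7KO replicate 1 it was 0.

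**Figure D4:**
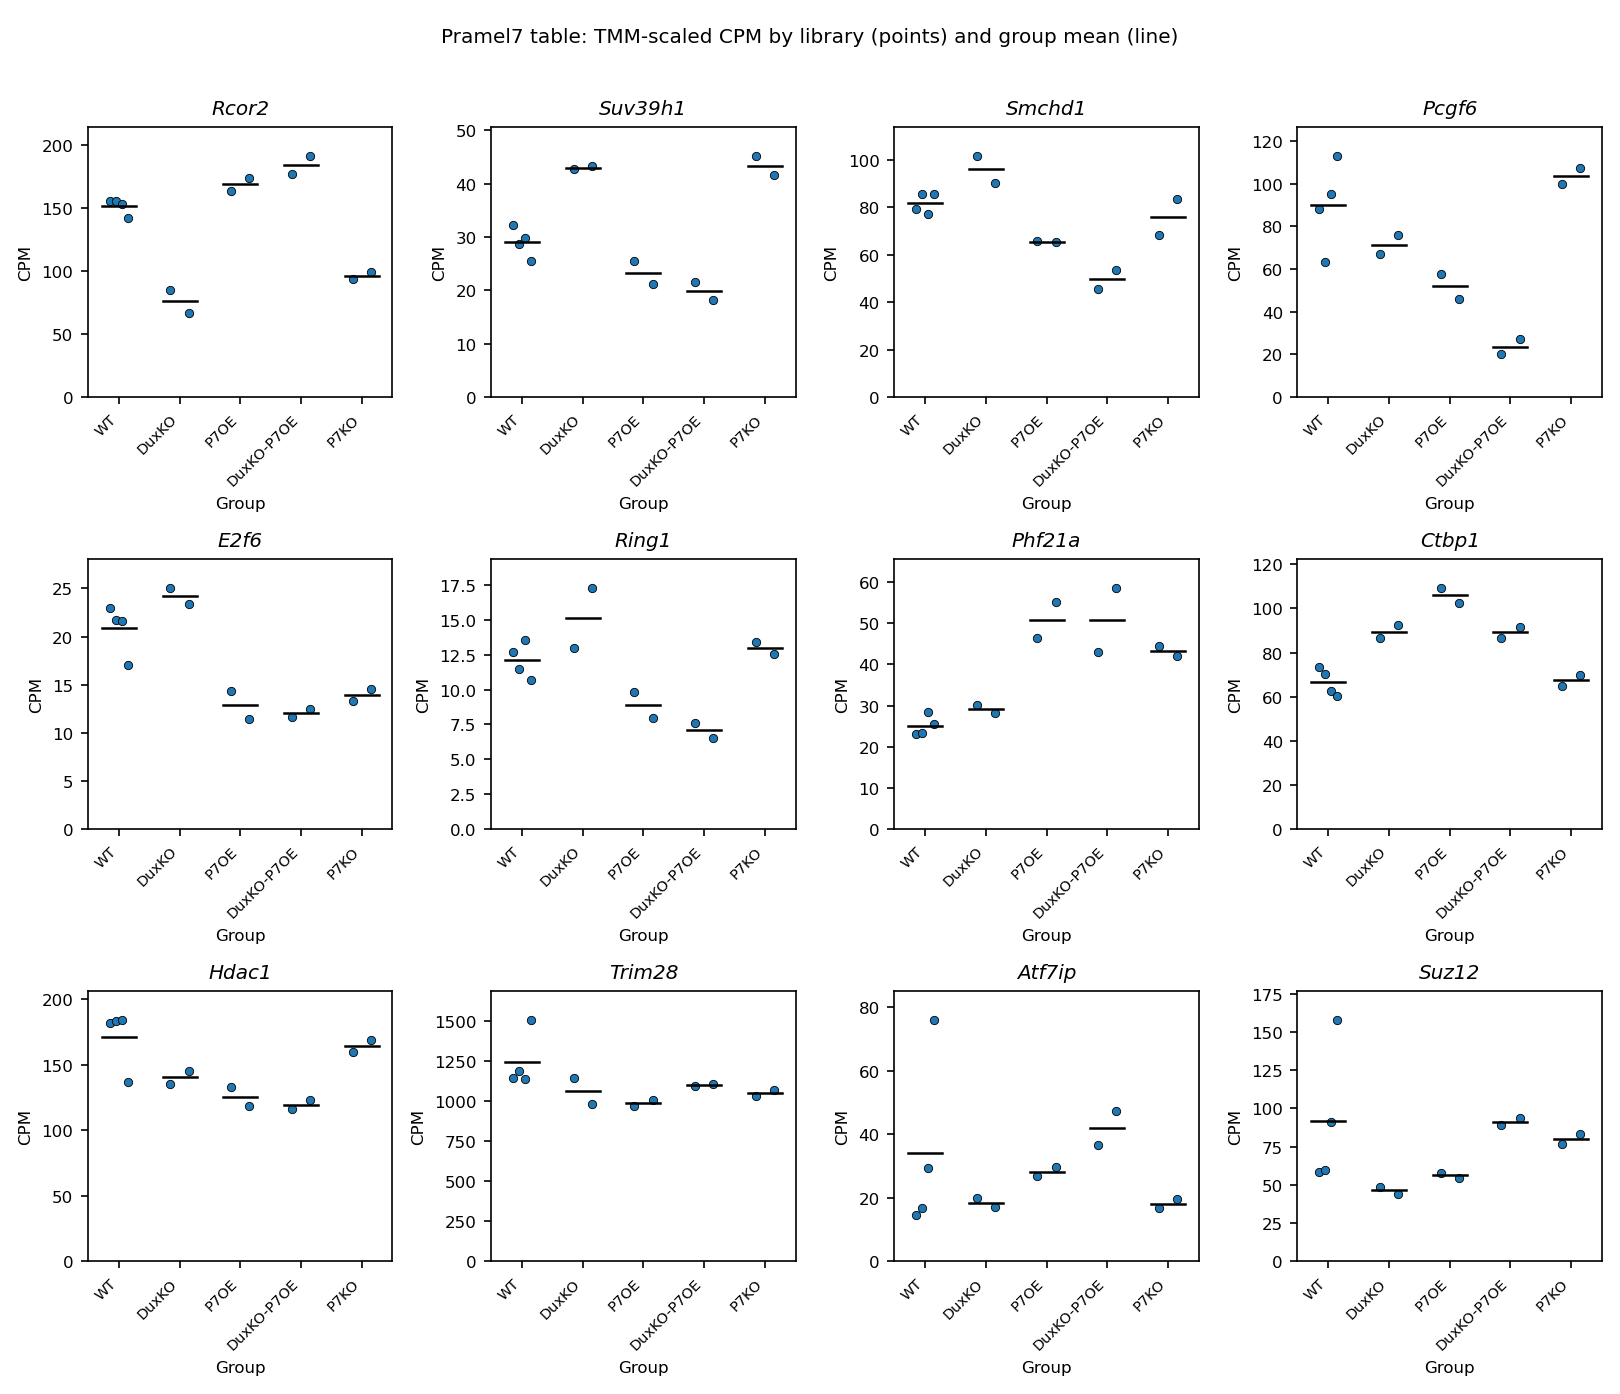
CPM on the y axis (from 0) for 12 members in the 5 groups of the Pramel7 table on the x axis (4 WT libraries, 2 in each other group, points) with group means (lines). DuxKO-P7OE is DuxKO_P7OE. Pcgf6 is lowest in DuxKO_P7OE, at 20.2 and 27.0 CPM. WT replicate 6 is the single WT point far above the others for Trim28 and below them for Hdac1. It is also above the other WT points for Atf7ip and Suz12, which were not flagged as having a distant library.

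In the time course, Ctbp1 held 0 to 4 counts in each library, and Ctbp2 rose and then fell. It stood at 58.9 and 59.3 CPM at day 0, 544 and 573 at day 3, 309.8 and 296 at day 9, 49.4 and 44.7 at day 12 and 52.4 and 54.7 at day 18. The day 3 level was thus above that of WT in the genotype table (211 and 215 CPM), although the tables were scaled separately. Ctbp2 was called higher at day 3 (3.24, SE 0.11, edgeR adjusted p 2.39e-09) and day 9 (2.36, SE 0.11) against day 0 and lower at day 12 (−2.69, SE 0.11) and day 18 (−2.50, SE 0.11) against day 9. Zscan4c held 13.5 and 10.5 CPM at day 0, 10.0 and 15.1 at day 3, 2.49 and 2.36 at day 9, 2.28 and 2.47 at day 12 and 9.17 and 9.68 at day 18. The trophoblast markers summed to 144 to 154 CPM at day 0, 77.4 to 81.3 at day 3, 115 to 119 at day 9, 163 to 174 at day 12 and 179 to 187 at day 18. The endoderm markers summed to 11.2 to 11.3 CPM at day 0 and 24.4 to 33.2 at day 18, with Afp at 0 in all 10 libraries. Their part in what follows was not tested.

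At day 3 against day 0, 1 member beside Ctbp2 was called, where 2.41% of all genes were called higher and 2.59% lower. That member was Rcor2, which went from 111 and 126 CPM to 89.4 and 84.4 (−0.45, SE 0.11, edgeR adjusted p 0.0365). At day 9 against day 0, Suv39h1 was the member called beside Ctbp2, with 20.9 and 19.8 CPM at day 0 and 32.4 and 29.7 at day 9 (0.61, SE 0.12, edgeR adjusted p 0.00688), where 3.60% of all genes were called higher and 3.73% lower. Both changes ran against those of CtbpDKO relative to WT. Over all genes tested in both tables, 51.9% of the day 3 calls and 48.4% of the day 9 calls did so too. At day 12 against day 9, Rcor2 rose from 89.3 and 95.9 CPM to 132 and 139 (0.55, SE 0.11, edgeR adjusted p 0.0151) and Eed, a core PRC2 subunit, from 72.7 and 71.6 to 90.6 and 100.5 CPM (0.41, SE 0.10, edgeR adjusted p 0.0389), where 1.87% of all genes were called higher and 1.97% lower. The Rcor2 and Eed calls at day 12 were lost whichever library of the pair of days was left out. The day 3 call of Rcor2 was lost without day 0 replicate 2 or either day 3 replicate, and the day 9 call of Suv39h1 without day 0 replicate 2 or day 9 replicate 1.

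At day 18 against day 9, 2 members were higher and 5 lower, where 5.03% of all genes were called higher and 3.86% lower. Rcor2 stood at 139 and 163 CPM at day 18 (0.71, SE 0.11, edgeR adjusted p 0.00147) and Atf7ip rose by 0.39 (SE 0.11). Atrx went from 160.1 and 151 CPM at day 9 to 87.9 and 92.6 at day 18 (−0.78, SE 0.11, edgeR adjusted p 0.000709). E2f6 (−0.51, SE 0.15), Suv39h2 (−0.47, SE 0.13) and Cbx5 (−0.44, SE 0.11) were also lower. Suv39h1 stood at 25.9 and 21.8 CPM at day 18, a change of −0.38 (SE 0.12, edgeR adjusted p 0.0621) that was not called. Of the 7 members called, 4 were called in the same direction in CtbpDKO against WT (Ctbp2, Rcor2, Suv39h2 and Atrx), which is 57.1% of the 7 and 23.5% of those called in CtbpDKO. Both shares count Ctbp2, a gene knocked out in CtbpDKO. Over all genes 934 were shared, 51.5% of the day 18 calls and 17.3% of the CtbpDKO calls. The calls of Ctbp2, Rcor2 and Atrx held under every alternative, and 3 to 6 members were called with 1 library left out. Against day 0, day 18 had 0 members called, and 0.359% of all genes were higher and 0.155% lower. At an unadjusted edgeR p under 0.05 there were 7 members, 16.3% against 12.2% of all genes, and DESeq2 called 2 members.

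**Figure D5:**
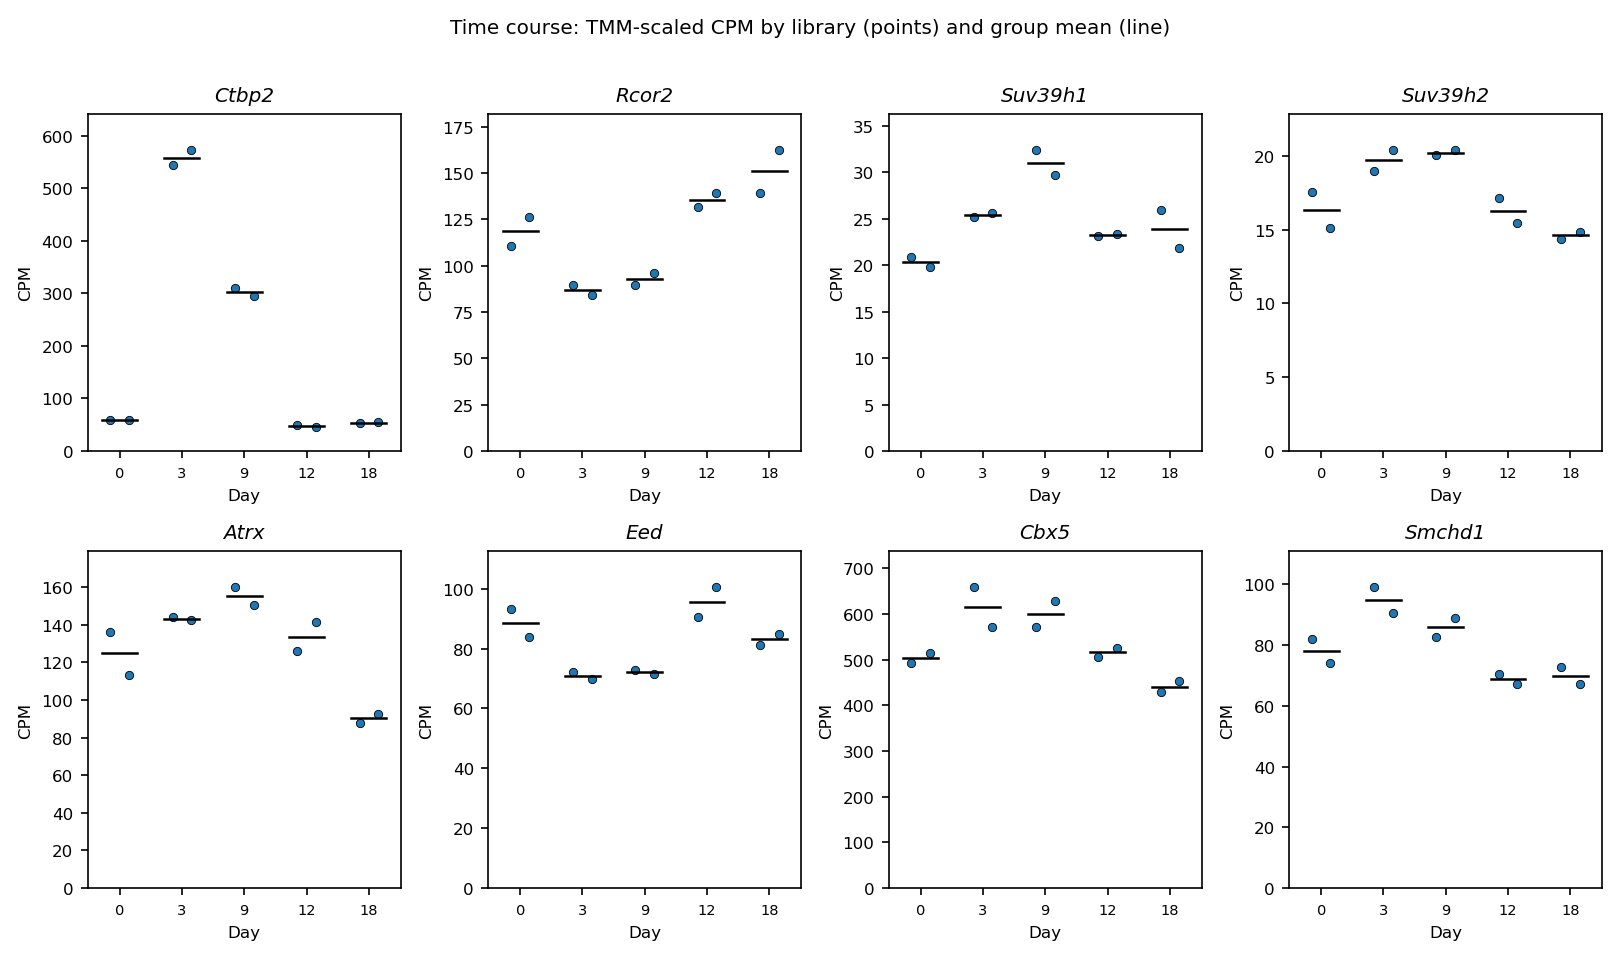
CPM on the y axis (from 0) for 8 members at days 0, 3, 9, 12 and 18 on the x axis, with 2 libraries a day as points and their mean as a line. Ctbp2 is high at days 3 and 9, Rcor2 is lowest at those days and Suv39h1 is highest at day 9.

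Across the 6 genotypes the ratio of the highest to the lowest group mean had a median of 1.57 over 43 members (Ctbp1 left out), and in the time course it was 1.27. Apart from Ctbp2, the widest ranges in the genotype table were those of Suz12 (2.87 times), Smchd1 (2.46 times), Rcor2 (2.28 times) and Atrx (2.26 times). In the Pramel7 table Pcgf6 had the widest, at 4.39 times. Kdm1a lay between 68.9 and 102 CPM in the 12 genotype libraries and was called in 2 of the 7 comparisons between groups there, and in the time course its 10 libraries lay between 107 and 125 CPM.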

How the data were processed

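Gene counts from 34 RNA libraries were used as the authors deposited them, in 3 tables; 6 bisulfite libraries of the series were not analysed here. Per the submitters' processing notes, mm10, Trim Galore, HISAT2, featureCounts and Bismark were used, without versions or order. All per-sample columns were matched to samples (0 unmatched). Each table was fitted separately with edgeR 4.0.16 (R 4.3.3): genes with low counts were removed by filterByExpr, libraries scaled by TMM, and groups compared by quasi-likelihood F tests over all libraries of the table, with a prior count of 0.125 and Benjamini-Hochberg adjustment over all tested genes. The SE is the absolute log2 fold change divided by the square root of F. The test was checked on simulated data for CtbpDKO against WT, where it recovered 49.0% of genes changed by 1 and 3.16% of those changed by 0.5 on the log2 scale. Few genes were changed in that simulation, drawn from all tested genes whatever their level, so these shares need not hold for the members. Chromosome medians used genes above a mean log2 CPM of 2. Promoters came from RefSeq (GRCm38.p6). Members and lists were chosen with earlier results of these data known. Named per library were Ctbp1, Ctbp2 and Kdm1a and, in each comparison, up to 4 called members per direction with the largest change and no overlap between groups; other members are given by value or count, and of the other complex genes the 2 largest per direction, except for a result that is not reported here. Alternatives were other scalings, no filter, a fold minimum, DESeq2 1.42.0, only the groups compared, a replicate block, single libraries left out and WT subsets.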

Additional observations from a re-analysis of the deposited data

Results flagged for a closer look

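The WT libraries of the Pramel7 table were the only group large enough to look for a single distant library, and 3 of 44 members had one, each time replicate 6; chance alone gives about 1 in 20. Hdac1 stood at 137 CPM there and at 182 to 184 in the others, Zmym3 at 36.7 against 28.7 to 29.9, and Trim28 at 1505 against 1133 to 1188.

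The response to Ctbp loss differed between cells with and without Dux, by the test of the difference itself, for 11 members. The differences in log2 fold change (without Dux minus with Dux) were 1.68 for Phf21a, 1.47 for Atf7ip, 1.07 for Mga, 0.87 for Cbx5, 0.73 for Wiz, 0.63 for Cbx1, 0.61 for L3mbtl2, 0.46 for Rcor2, −0.55 for Chaf1b, −0.72 for Hdac1 and −0.97 for Ring1.

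It differed between cells with and without Dppa2 for 8 members. These differences were −0.88 for Atrx, −0.85 for Ehmt2, −0.75 for Hdac1, −0.67 for Zmym3, −0.66 for Kdm1a, −0.62 for Hdac2, −0.62 for Mtf2 and −0.48 for Setdb1. In both sets 6 and 5 members, respectively, held their call under every alternative.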

How the results depend on the processing

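Of 173 calls over members and comparisons, 65 held under every alternative and 108 were lost under at least 1. Leaving the fold minimum aside, 74 held and 99 were lost, and 0 reversed. Groups of 2 libraries limit which small changes can be called, although members with changes under 0.5 on the log2 scale were called in several comparisons.

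A minimum absolute log2 fold change of 0.5 left 9 members in CtbpDKO against WT, 6 in DuxKO against WT, 14 in Ctbp_DuxTKO against DuxKO, 2 in Dppa2KO against WT, 5 in DKO_Dppa2KO against CtbpDKO, 11 in DKO_Dppa2KO against Dppa2KO, 6 in P7OE against WT, 1 at day 3 against day 0 and 4 at day 18 against day 9, by construction. Without the filter on low counts the number was 9 in Ctbp_DuxTKO against CtbpDKO, 2 in DuxKO_P7OE against P7OE and 3 at day 18 against day 0. DESeq2 called 9, 1 and 2 in these, and 4 at day 9 against day 0. With only the groups compared in the fit (fewer libraries to estimate the spread) there were 5 in DuxKO and 4 in P7OE against the WT of the Pramel7 table, 2 in DuxKO_P7OE against P7OE, 2 in P7KO against WT, 1 at day 3 and 3 at day 18 against day 9. With WT replicates 5 and 6 only, DuxKO against WT had 21; with replicates 3 and 4 only, P7OE had 21 and P7KO 18. The cause was not tested for the others.

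With 1 library left out the lowest and highest counts were 11 and 17 (CtbpDKO against WT), 5 and 7 (DuxKO against WT), 1 and 6 (Ctbp_DuxTKO against CtbpDKO), 18 and 22 (Ctbp_DuxTKO against DuxKO), 2 and 4 (Dppa2KO against WT), 4 and 8 (DKO_Dppa2KO against CtbpDKO), 10 and 17 (DKO_Dppa2KO against Dppa2KO), 6 and 11 (difference with Dux), 5 and 10 (difference with Dppa2), 1 and 14 (DuxKO, Pramel7 table), 2 and 17 (P7OE), 6 and 8 (DuxKO_P7OE against DuxKO), 0 and 0 (DuxKO_P7OE against P7OE), 0 and 8 (P7KO), 1 and 2 (day 3), 1 and 3 (day 9), 1 and 1 (day 12), 3 and 6 (day 18 against day 9) and 0 and 1 (day 18 against day 0). The lone library left is assumed to vary like the other groups.

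Replicate numbers did not pair the libraries: same-numbered libraries correlated from −0.10 to 0.09 in their deviations from group means. With the replicate block DuxKO_P7OE against P7OE had 4 calls and day 18 against day 9 had 4. The block could not be fitted for P7OE or P7KO against WT or DuxKO_P7OE against DuxKO, which share no numbers.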
